A study of Homo sapiens with 18 samples.

Results

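The genes described here encode the proteins of the mitochondrial ribosome that carry MRPL or MRPS symbols, and they were chosen by symbol alone: every gene of the deposited table named MRPL or MRPS followed by a number, with or without the letter A, B or C. This rule took 78 of the 56269 genes in the table, 29 of them named MRPS and 49 named MRPL, and used no measured value. All 78 were annotated as protein coding, they lay on 21 chromosomes, and all 78 were among the 13686 genes that passed a minimum mean normalized count of 10 over the 18 libraries and entered the tests. By the place of the protein in the ribosome, 26 encode proteins of the small subunit and 51 proteins of the large subunit, the latter including MRPS18A and MRPS30, whose names place them in the small subunit. The remaining gene, MRPS36, encodes a protein now known to belong to the 2-oxoglutarate dehydrogenase complex and not to the ribosome.

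The mitochondrial ribosome makes the few proteins encoded by mitochondrial DNA, which are core parts of the respiratory chain and the ATP synthase. Its rRNAs are transcribed inside the mitochondrion, whereas all of its proteins are encoded in the nucleus, made in the cytosol and imported, so that the particle needs the output of both genomes. Compared with the ribosome of bacteria it has lost rRNA and gained proteins: some MRP proteins have a bacterial counterpart, others are found only in mitochondria. Much of the nuclear supply is known to rest on housekeeping promoters bound by ETS family factors such as GABP, by NRF1 and by YY1.

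The cells were IMR90, a human lung fibroblast line, and polyadenylated RNA was sequenced in 6 groups of 3 libraries each. The pre-incubation lasted 6 h and was with the vehicle PBS or 20 μg/ml of hyaluronan (HA) from naked mole-rat skin fibroblasts. In the control form, cNSF-HA, this very long polymer had been mixed with hyaluronidase already inactivated by heat; in the other, fNSF-HA, it had been partly fragmented by active hyaluronidase before the heating step. A further set of 3 groups had the same pre-incubations followed by 200 μM tert-butyl hydroperoxide (tBHP), an organic peroxide that oxidises cell constituents, for 1 h. The libraries without tBHP were collected at the end of the pre-incubation and those with tBHP 5 h after the exposure had ended, so the oxidant and the later collection cannot be told apart in what is called a tBHP response below. The methods of the study call its replicates biological and do not say how they were set up for the sequencing, and the p-values measure the spread between these libraries.

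The libraries held 20261103 to 26287660 reads on genes. All fibroblast markers examined were present in every library, the lowest being LUM at a normalized count of 223, and the 5 epithelial, 4 endothelial and 4 leukocyte markers were mixed. EPCAM and CDH1 did not exceed 5.47 and 4.38 and the endothelial gene CDH5 was at 0 in all 18 libraries, whereas the keratins KRT8, KRT18 and KRT19 were present in all, KRT18 at 1575 to 1778 without tBHP and 920.1 to 1570.4 with it. The summed epithelial markers were at 2087 to 2347 without and 1235 to 2190 with tBHP, the endothelial ones at 6.52 to 14.8 and 13.1 to 25.1, almost all VWF, and the leukocyte ones at 3.73 to 7.82 and 4.38 to 19.0. Their part in the results below was not tested. Replicates lay closer together without tBHP than after it: the median within-group SD of the 78 genes on the log2 scale was 0.0587 and 0.167, against 0.0761 and 0.206 over all genes tested. Of the libraries with tBHP, the third cNSF-HA library lay above its group, with a median deviation of 0.18 over the 78 genes on the log2 scale, against -0.11 and -0.08 for the other two (0.05 with each library's trend on GC content and length removed), and in the second fNSF-HA library single genes were far below the rest. As in any RNA extract of a culture, fewer transcribing cells and less RNA per cell cannot be told apart.

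The levels of the genes differed widely. The median over the 78 genes of the mean normalized count in all 18 libraries was 693, compared with 484 over all genes tested, with 73 genes at 100 or more. Per kb of annotated exon, the median level without tBHP was 286 normalized counts per kb and the middle of the distribution, between the quartiles, ran from 151 to 490. The highest levels on this scale were those of MRPL51 (1341 per kb), MRPL15 (1099 per kb) and MRPS34 (1028 per kb). The lowest were those of MRPS24 (5.53 per kb), MRPL38 (14.2 per kb) and MRPL46 (20.7 per kb). Exon bases of 39 of the 78 genes are shared with another annotated gene, and reads in them cannot be assigned with certainty: for MRPS24 the partner is the readthrough gene URGCP-MRPS24 on the same strand, and for MRPL38, MRPL46 and MRPL51 the partners are annotated transcripts on the same or the opposite strand. Of the genes described below, MRPL2, MRPL4, MRPL9, MRPL19, MRPL23, MRPL32, MRPL43, MRPL49, MRPS9, MRPS18A, MRPS18C, MRPS22, MRPS25 and MRPS27 share exon bases with genes on the opposite strand, and the kit does not mark the strand of a transcript. MRPL9, MRPL12, MRPL28, MRPL53 and MRPS28 share some with a gene on the same strand. The table also held 73 pseudogenes named after these genes.

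Summed over the 78 genes, the normalized count differed little between groups. It was 62646, 64375 and 64822 in the lowest, middle and highest PBS library, 63292, 63462 and 65154 with cNSF-HA, and 63994, 64347 and 64680 with fNSF-HA. After tBHP it was 62059, 62931 and 62958 for PBS, 64058, 65825 and 77479 for cNSF-HA and 58856, 63707 and 66272 for fNSF-HA. Each group with tBHP overlapped with its counterpart without it. The third cNSF-HA library with tBHP was the highest of all and the second fNSF-HA library with tBHP the lowest. The 78 genes took between 0.263% and 0.340% of all reads on genes. In PBS cells this share was 0.285% to 0.294% without tBHP and 0.268% to 0.276% with it, without overlap. It was 0.290% to 0.295% and 0.278% to 0.340% with cNSF-HA. With fNSF-HA it was 0.287% to 0.289% and 0.263% to 0.287%, and the groups of each HA form overlapped. Over the same libraries the summed normalized count of the 2 mitochondrial rRNA genes went from 44704 to 49173 without tBHP to between 134116 and 178737 after it, with no overlap.

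**Figure D1:**
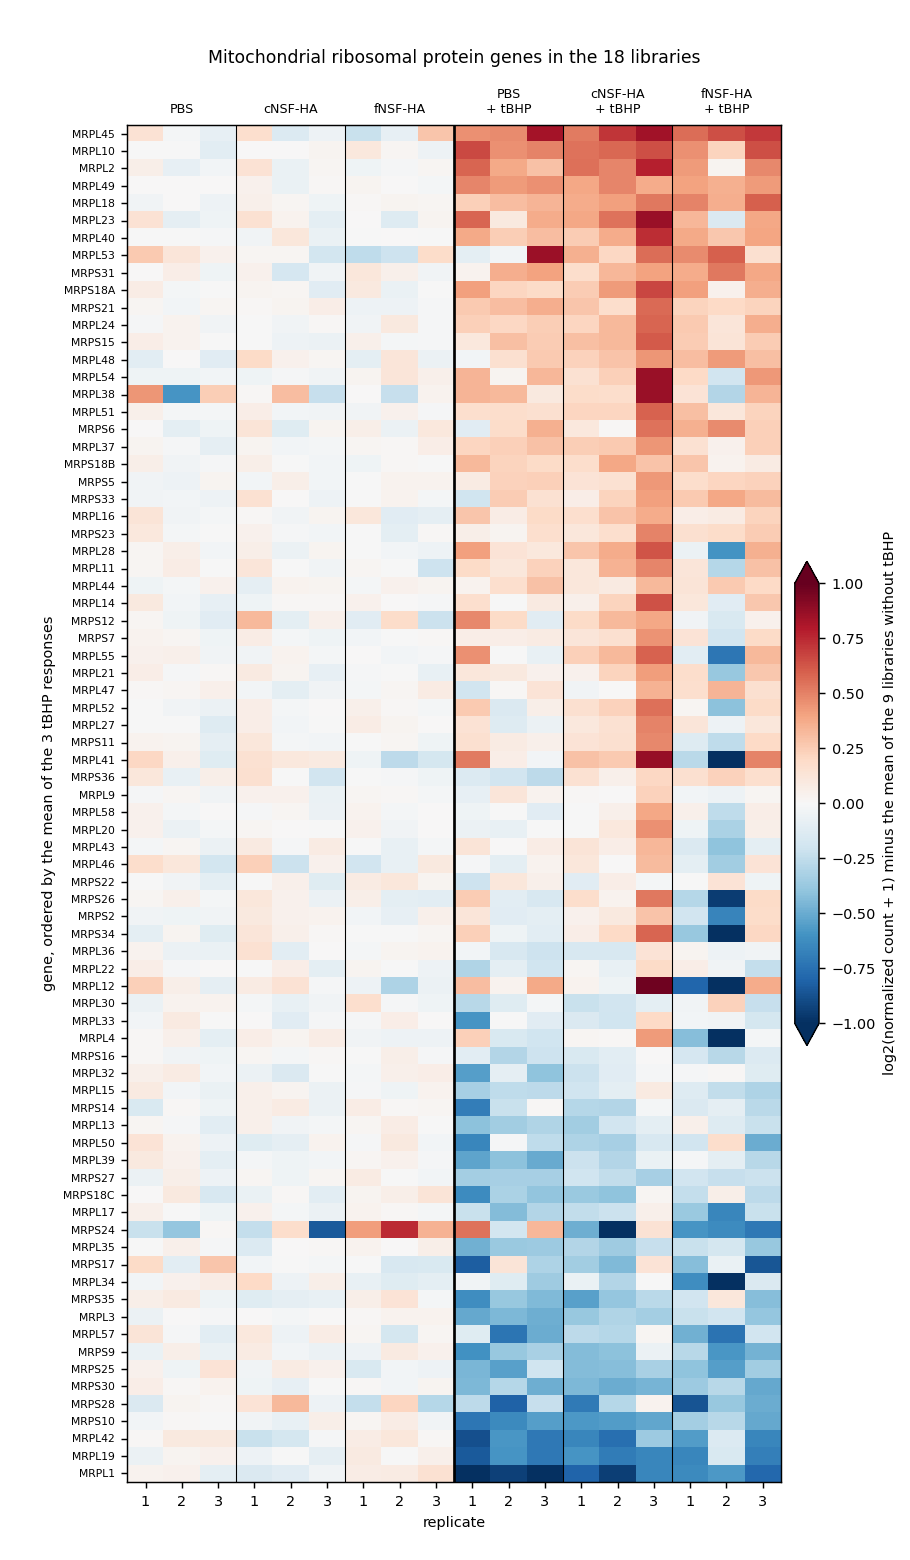
Each row is 1 of the 78 mitochondrial ribosomal protein genes and each column 1 of the 18 libraries; colour gives the log2(normalized count + 1) minus the gene's mean over the 9 libraries without tBHP, with colours that stop at 1 in either direction. Rows at one end, such as MRPL45 and MRPL10, are higher in all 9 libraries with tBHP, rows at the other end, such as MRPL1 and MRPL19, are lower, and most rows in between show little shift.

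Behind the steady sum of normalized counts, single genes moved in opposite directions after tBHP. In PBS cells 12 of the 78 genes rose and 19 fell (limma, adjusted p under 0.05), when 24.2% of all genes tested rose and 26.9% fell. In cNSF-HA cells 24 rose and 12 fell, with 24% and 26.8% of all genes. In fNSF-HA cells 14 rose and 17 fell, with 19.2% and 22.7% of all genes. The genes that passed in either direction were thus 39.7%, 46.2% and 39.7% of the 78 and 51.1%, 50.8% and 41.9% of all genes, and the shares of the set were near or below the background. The median log2 change of the 78 genes was 0.05 for PBS, 0.18 for cNSF-HA and -0.05 for fNSF-HA, beside 0.004, -0.0005 and -0.03 over all genes tested. The count in cNSF-HA cells rested on the third cNSF-HA library with tBHP, without which 16 genes rose and 15 fell (21.2% and 24.1% of all genes) and the median was 0.05. Without the second fNSF-HA library with tBHP, 19 rose and 18 fell in fNSF-HA cells (24.4% and 26.2% of all genes), and the number that rose was 8 without the first or without the third fNSF-HA library collected without tBHP (16.1% and 15.9% of all genes) and 9 without the first one collected with it (15.6%). Counted on the recovered reads with edgeR and TMM scaling, the balance moved towards rises, with 19 up and 18 down for PBS, 31 and 9 for cNSF-HA and 22 and 12 for fNSF-HA, when 29.7% and 23.5%, 28.8% and 23.8%, and 24.2% and 19.1% of all genes were called. Quantile normalization gave 18 rises and 14 falls in fNSF-HA cells (21.2% and 21.2% of all genes).

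The same genes tended to move in the same direction under the 3 pre-incubations, which is a comparison of sets of libraries that do not overlap. Of the 78 genes, 31 had a log2 change above 0 and 27 a change below 0 in all 3 responses. The Spearman correlation of the log2 changes across the 78 genes, which are not independent replicates, was 0.895 between PBS and cNSF-HA cells, 0.718 between PBS and fNSF-HA cells and 0.768 between cNSF-HA and fNSF-HA cells. Neither these correlations nor the shared signs are given for all genes tested, so they are not read as particular to this set. In all 3 responses 9 genes rose and 10 fell, where 14.6% and 17.9% of all genes tested did so. The rises were 17 with edgeR and TMM scaling (18.8% of all genes) and 14 with quantile normalization (15.8%), and the falls 17 with the trend on GC content and length removed (22.4%) and 19 with the replicate block as well (22.6%). The 9 that rose were MRPL2, MRPL10, MRPL18, MRPL24, MRPL40, MRPL45, MRPL49, MRPS21 and MRPS31. The 10 that fell were MRPL1, MRPL3, MRPL19, MRPL35, MRPL42, MRPS9, MRPS10, MRPS25, MRPS27 and MRPS30. Under each of 31 other settings, leaving out each library in turn included, 5 of the rises (MRPL10, MRPL18, MRPL45, MRPL49 and MRPS21) and 7 of the falls (MRPL1, MRPL3, MRPL19, MRPS10, MRPS25, MRPS27 and MRPS30) passed in all 3 responses, whereas MRPL24 did so in 20 of the 32 settings. With a library left out, only the response that used it was tested anew, and the calls of the other responses were kept from the full fit. No gene rose in 1 response and fell in another, 47 (60.3%) passed in at least 1 response, compared with 64.4% of all genes, and 31 passed in none.

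**Figure D2:**
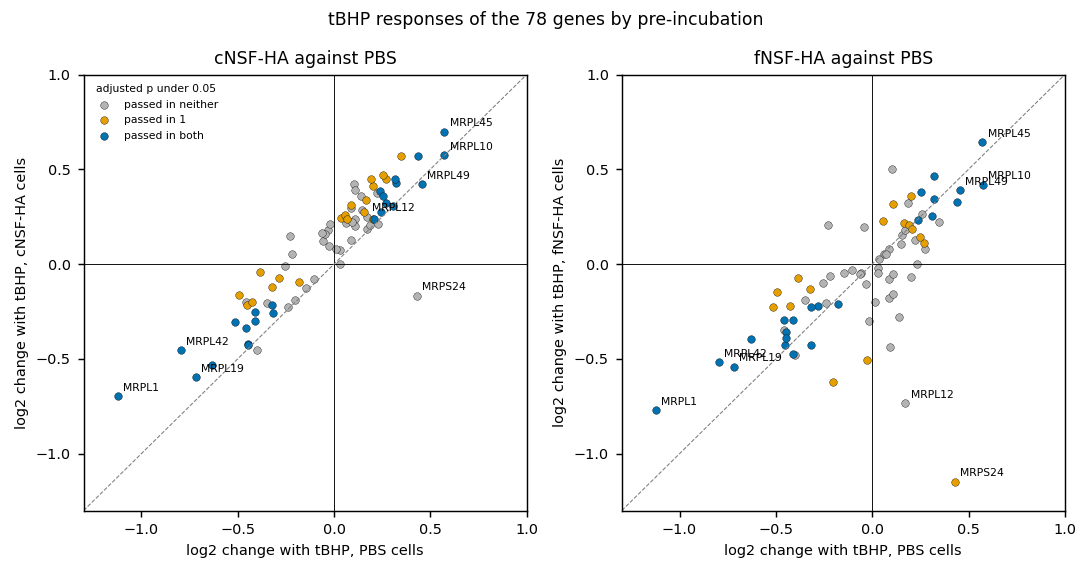
The log2 change with tBHP of each of the 78 genes in PBS cells (x axis) is plotted against its change with cNSF-HA or fNSF-HA (y axes); colour marks genes with an adjusted p under 0.05. The points follow the diagonal, with Spearman correlations of 0.895 and 0.718, and MRPL1 lies lowest in PBS cells.

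Among the genes that rose, MRPL45 had the largest mean change. It encodes the large-subunit protein that holds the ribosome to the inner membrane beside the exit of the peptide tunnel, and lies at chr17:38297023-38323218 (GRCh38) on the plus strand. Its normalized count was 147, 131 and 125 in the 3 PBS libraries, 149, 120.2 and 128 with cNSF-HA and 114, 125 and 161 with fNSF-HA. After tBHP it was 183, 184 and 236 for PBS, 191, 218 and 238 for cNSF-HA and 196, 207 and 218 for fNSF-HA. All 9 libraries with tBHP were above all 9 without it. The log2 changes were 0.57 (PBS), 0.70 (cNSF-HA) and 0.64 (fNSF-HA), with a standard error of 0.141 each and adjusted p of 0.00264, 0.000521 and 0.00131 by limma.

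MRPL10, at chr17:47823272-47831534 on the minus strand, encodes the base of the flexible stalk to which copies of MRPL12 bind and where translation factors dock. Its normalized count was 964, 959 and 897 for PBS, 966, 967 and 982 for cNSF-HA and 1039, 979 and 928 for fNSF-HA without tBHP. With tBHP the values were 1522, 1322 and 1359 for PBS, 1403, 1434 and 1509 for cNSF-HA and 1325, 1128 and 1510.2 for fNSF-HA. Again the libraries with and without tBHP did not overlap, and the log2 changes were 0.57 (PBS), 0.58 (cNSF-HA) and 0.42 (fNSF-HA) (adjusted p 4.13e-05, 4.35e-05 and 0.00104). Its partner MRPL12, the stalk protein, which has also been reported to bind the mitochondrial RNA polymerase, gave 381, 337 and 304 with PBS and 401, 331 and 420.2 with PBS and tBHP, an adjusted p of 0.743. In fNSF-HA cells with tBHP its counts were 187, 70.2 and 418, the second library being far below the others. The log2 change there was -0.73 (adjusted p 0.151) and -0.07 without that library, and without the third it was -1.35 and passed. It was -0.81 and also passed with the trend on GC content and length removed.

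MRPL49, at chr11:65122183-65127371 on the plus strand, encodes a large-subunit protein without bacterial counterpart. It gave 1274, 1275 and 1275 with PBS, 1308, 1218 and 1281 with cNSF-HA and 1298, 1279 and 1253 with fNSF-HA. After tBHP the counts were 1785, 1715 and 1744 for PBS, 1664, 1788 and 1651 for cNSF-HA and 1682, 1626 and 1713 for fNSF-HA, all above every library without tBHP. The log2 changes were 0.46 (PBS), 0.42 (cNSF-HA) and 0.39 (fNSF-HA) (adjusted p 4.72e-06, 1.22e-05 and 3.35e-05). Its exons overlap those of FAU and SYVN1 on the opposite strand, from which its reads cannot be separated without strand.

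MRPL18, whose bacterial counterpart binds the 5S rRNA, is known to be made also in a cytosolic form in heat-stressed cells, and both products share their reads here. The counts were 1129 to 1217 over the 9 libraries without tBHP and 1382 to 1773 over the 9 with it, and the log2 changes were 0.32 (PBS), 0.43 (cNSF-HA) and 0.47 (fNSF-HA) (adjusted p 0.000769, 5.8e-05 and 2.76e-05). MRPL40, a large-subunit protein specific to mitochondria, lay at 507 to 574 without tBHP and at 628 to 885 with it, also without overlap, with log2 changes of 0.32 (PBS), 0.45 (cNSF-HA) and 0.34 (fNSF-HA), of which those for PBS and cNSF-HA were 0.03 and 0.07 with the trend on GC content and length removed. MRPL2, a core protein next to the catalytic centre, gave 467, 424 and 440.2 with PBS and 673, 585 and 551 with PBS and tBHP, and its changes were 0.44 (PBS), 0.57 (cNSF-HA) and 0.33 (fNSF-HA). The second fNSF-HA library with tBHP, at 457, lay within the 424 to 497 of the libraries without tBHP. MRPS31, of the small subunit, gave 0.25 (PBS), 0.36 (cNSF-HA) and 0.38 (fNSF-HA) on the log2 scale, with counts of 305 to 372 without and 351 to 495 with tBHP that overlapped. Its call for PBS held without the first library with tBHP and was lost without any other library of the 2 groups (0.19 to 0.28), and the call of MRPL2 for fNSF-HA held without the second library with tBHP (0.47) and was lost without any other (0.24 to 0.34). Both calls were also lost with no filter on low genes and in a fit of only the groups compared. Pseudogenes of MRPS31 held reads equal to 9.02% of its own.

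MRPL23, a protein near the exit of the peptide tunnel, passed the test in cNSF-HA cells. Its normalized count was 427, 394 and 359 with cNSF-HA and 503, 561 and 700.3 with cNSF-HA and tBHP, a log2 change of 0.57 (adjusted p 0.00384). The changes of 0.35 in PBS cells and 0.22 in fNSF-HA cells had adjusted p of 0.0592 and 0.242, and the differences between these responses did not pass the test either. Without the second PBS library with tBHP the first was 0.47 and without the second fNSF-HA library with tBHP the other was 0.39, and both then passed. The change for PBS also passed with DESeq2, edgeR and TMM scaling, quantile normalization, a fit of only the groups compared and the replicate block (0.35 to 0.42). With the trend on GC content and length removed the changes of MRPL23 were 0.03 (PBS), 0.13 (cNSF-HA) and 0.11 (fNSF-HA), and none passed. MRPL24 and MRPS21, named after their values were seen because they rose in all 3 responses, had smaller changes. MRPL53, likewise named, had 0.10 (PBS), 0.42 (cNSF-HA) and 0.50 (fNSF-HA), none of which passed. For MRPL24 the changes were 0.24 (PBS), 0.39 (cNSF-HA) and 0.23 (fNSF-HA), and with the trend on GC content and length removed they were 0.01, 0.06 and 0.08 and none passed. For MRPS21, at chr1:150293720-150308979 on the plus strand, they were 0.31 (PBS), 0.30 (cNSF-HA) and 0.25 (fNSF-HA), and its counts of 1128 to 1482 with tBHP lay above the 962 to 1045 without it.

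The gene with the largest mean fall was MRPL1, which encodes the protein of the mobile L1 stalk, where spent tRNA leaves the ribosome, and lies at chr4:77862520-77952790 on the plus strand. Its normalized count was 569.7, 574 and 521 with PBS, 503, 514 and 544 with cNSF-HA and 587, 590.3 and 619.6 with fNSF-HA. After tBHP it was 212, 291 and 266 for PBS, 319, 290.2 and 355 for cNSF-HA and 358, 373 and 322 for fNSF-HA. Every library with tBHP was below every library without it, and among the libraries with tBHP those of PBS cells held the lowest value and overlapped with those of cNSF-HA cells. The log2 changes were -1.12 (PBS), -0.70 (cNSF-HA) and -0.77 (fNSF-HA), with a standard error of 0.107 each and adjusted p of 1.51e-07, 3.75e-05 and 1.53e-05.

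MRPL19, a large-subunit protein with a bacterial counterpart, lies at chr2:75646783-75690851 on the plus strand. Its normalized count was 1059, 1123 and 1135 with PBS, 1063, 1102 and 1035 with cNSF-HA and 1173, 1097 and 1139 with fNSF-HA. With tBHP it was 616, 733 and 671 for PBS, 734, 679.8 and 702 for cNSF-HA and 702, 989 and 686 for fNSF-HA. None of these overlapped with the libraries without tBHP, and the log2 changes were -0.72 (PBS), -0.60 (cNSF-HA) and -0.54 (fNSF-HA) (adjusted p 2.65e-05, 0.000184 and 0.000563).

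MRPS10, at chr6:42206801-42217865 on the minus strand, is a small-subunit protein with a bacterial counterpart. It had normalized counts of 1308, 1344 and 1327 with PBS, 1302, 1265 and 1383 with cNSF-HA and 1352, 1403 and 1296 with fNSF-HA. With tBHP the counts were 806, 857 and 907 for PBS, 894, 903 and 930.1 for cNSF-HA and 1049, 1098 and 934 for fNSF-HA. The libraries with tBHP were all lower, by log2 changes of -0.63 (PBS), -0.53 (cNSF-HA) and -0.40 (fNSF-HA) (adjusted p 1.27e-06, 9.5e-06 and 0.000235).

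**Figure D3:**
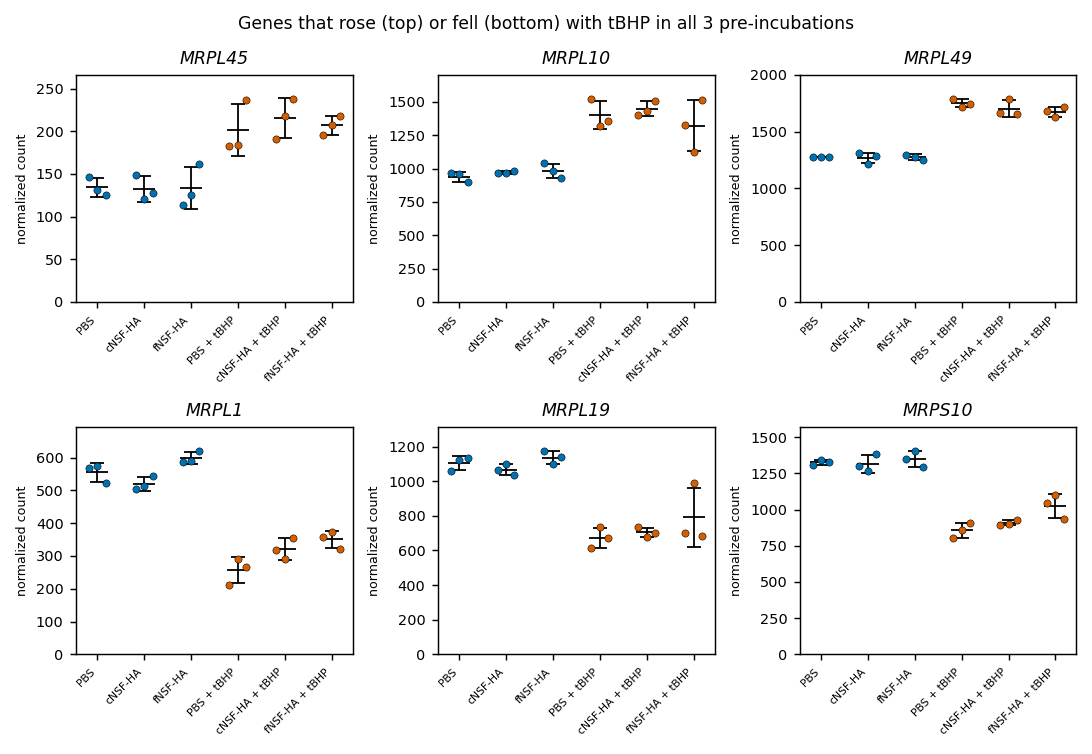
Normalized counts of genes that rose and genes that fell after tBHP are plotted by group, 1 point per library and a bar for the mean of 3, with the error bar showing the SD; the y axes start at 0. The 3 groups with tBHP lie above the 3 without it for MRPL45 and MRPL10 and below them for MRPL1 and MRPS10.

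The other genes with large falls were of both subunits. MRPL42, specific to mitochondria, gave 1214 ± 43.7 with PBS and 701 ± 72.2 with PBS and tBHP (mean ± SD, n = 3), and its log2 changes were -0.80 (PBS), -0.45 (cNSF-HA) and -0.52 (fNSF-HA). The second fNSF-HA library with tBHP, at 1049, overlapped with libraries without tBHP, and with the trend on GC content and length removed the changes were -0.33 (PBS), which passed, and 0.14 (cNSF-HA) and -0.19 (fNSF-HA), which did not. MRPS30, a large-subunit protein despite its symbol, fell in all 3 responses, from a range of 602 to 665 without tBHP to a range of 446 to 524 with it, with log2 changes of -0.45 (PBS), -0.43 (cNSF-HA) and -0.39 (fNSF-HA). MRPS25, specific to mitochondria, had log2 changes of -0.45 (PBS), -0.42 (cNSF-HA) and -0.36 (fNSF-HA) and counts of 933 to 1139 without and 706 to 900.5 with tBHP, without overlap. MRPS9, a protein of the head of the small subunit, had -0.41 (PBS), -0.30 (cNSF-HA) and -0.47 (fNSF-HA). MRPL57, specific to mitochondria, fell in PBS cells (-0.45, adjusted p 0.0151) and in fNSF-HA cells (-0.43, adjusted p 0.0248), while its change of -0.22 in cNSF-HA cells had an adjusted p of 0.221. The calls of MRPL57 did not hold without the first PBS library collected without tBHP or the second with it (-0.39 and -0.31), nor for fNSF-HA without the first or the third library without tBHP or the first or the second with it (-0.29 to -0.42), and that of MRPS9 for cNSF-HA not without the first or the second library of either kind (-0.23 to -0.31). MRPL57 also lost its call for fNSF-HA with edgeR and TMM scaling (-0.35), quantile normalization (-0.36) and a fit of only the groups compared (-0.43), and MRPS9 its call for cNSF-HA with edgeR and TMM scaling (-0.23). MRPS28, named after its values were seen, had -0.40 (PBS), -0.46 (cNSF-HA) and -0.48 (fNSF-HA), none of which passed the test. MRPL3, MRPL35 and MRPS27, named after their values were seen because they fell in all 3 responses, changed by -0.46, -0.41 and -0.32 in PBS cells. With the trend on GC content and length removed MRPL35 had -0.03 (PBS), 0.10 (cNSF-HA) and -0.08 (fNSF-HA), none of which passed.

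Other genes had changes near 0. Among genes with a mean normalized count of at least 100, the 3 with the smallest mean absolute change over the 3 responses were MRPS22, MRPL9 and MRPL36. MRPS22, specific to mitochondria, gave 697, 683 and 653 with PBS and 605, 757 and 724 with PBS and tBHP, and its log2 changes were 0.03 (PBS), 0.00 (cNSF-HA) and -0.04 (fNSF-HA). For MRPL9 these were 0.03 (PBS), 0.08 (cNSF-HA) and -0.02 (fNSF-HA) and for MRPL36 -0.10 (PBS), -0.08 (cNSF-HA) and -0.03 (fNSF-HA). None of these 9 changes passed the test, the smallest adjusted p being 0.364. With each library's trend on GC content and transcript length removed, MRPL9 had changes of -0.15 (PBS), -0.18 (cNSF-HA) and -0.17 (fNSF-HA), and MRPL36 of -0.48 for PBS and -0.58 for cNSF-HA, all of which passed.

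The 3 relatives of bacterial S18 are MRPS18C, which takes the place of S18 in the small subunit, MRPS18B, which sits elsewhere in the small subunit, and MRPS18A in the large one. MRPS18B rose in PBS cells (0.25, adjusted p 0.0189) and cNSF-HA cells (0.27, adjusted p 0.0103), and had 0.14 in fNSF-HA cells with an adjusted p of 0.179. MRPS18A rose in cNSF-HA cells by 0.47 (adjusted p 0.00159), with 0.26 and 0.26 in the other two, at adjusted p of 0.0576 and 0.061. MRPS18C fell in PBS cells (-0.43, adjusted p 0.00576), where its count was 565, 604 and 506 without and 364, 453 and 429 with tBHP. With the trend on GC content and length removed that change was 0.028, those of MRPS18B were 0.07 and 0.03 and that of MRPS18A for cNSF-HA was 0.10, none past the threshold. MRPS18A passed for fNSF-HA (0.38) without the second library with tBHP. It also passed with DESeq2, edgeR and TMM scaling and quantile normalization for PBS (0.26 to 0.32) and fNSF-HA (0.27 to 0.33), and for PBS in a fit of only the groups compared (0.26). With the trend on GC content and length removed, MRPS18A had -0.005 (PBS) and 0.12 (fNSF-HA), and neither passed. MRPS18B passed for fNSF-HA with edgeR and TMM scaling (0.21), but had 1.5e-05 there with the trend on GC content and length removed and did not pass. MRPS18B was lost for PBS without the second or the third library without tBHP or the first with it (0.21 to 0.24) and for cNSF-HA without the second library with tBHP (0.22), and MRPS18C passed for cNSF-HA without the third library with tBHP (-0.33) and for fNSF-HA without the second (-0.32). With that trend removed MRPS18C had 0.11 (cNSF-HA) and -0.009 (fNSF-HA), and neither passed. The differences between these genes were not tested.

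At the ends of the range of levels, MRPL51 rose in cNSF-HA and fNSF-HA cells (0.34 and 0.22) and had 0.17 in PBS cells (adjusted p 0.107). With the trend on GC content and length removed its changes were 0.18 for cNSF-HA, which passed, and 0.10 for fNSF-HA, which did not. The call for fNSF-HA was also lost with no filter on low genes, with quantile normalization, in a fit of only the groups compared and without each library of these groups but the second with tBHP (0.17 to 0.24), and the change for PBS passed with edgeR and TMM scaling (0.23) and in a fit of only the groups compared (0.17). MRPL15 fell in PBS cells (-0.28) and fNSF-HA cells (-0.22), with -0.07 in cNSF-HA cells at an adjusted p of 0.441 (-0.16 and passing with that trend removed). Its call for fNSF-HA was lost with no filter, quantile normalization, edgeR and TMM scaling, a fit of only the groups compared and without the first or the third library without tBHP or the third with it (-0.16 to -0.23). MRPS34 had 0.09 (PBS), 0.22 (cNSF-HA) and -0.44 (fNSF-HA), and MRPL46 -0.06 (PBS), 0.12 (cNSF-HA) and -0.05 (fNSF-HA). MRPL38 had 0.22 (PBS), 0.37 (cNSF-HA) and 0.13 (fNSF-HA), and none of the changes of MRPS34, MRPL46 and MRPL38 passed the test as fitted here, but those of MRPS34 were -0.28, -0.26 and -0.51 with that trend removed and all passed. The change of MRPS34 for fNSF-HA was -0.09 without the second fNSF-HA library with tBHP and -0.76, which passed, without the third. MRPS24, whose count was only 7.24 to 23.6 without tBHP, fell in fNSF-HA cells (-1.15, adjusted p 0.0098), where its 3 counts with tBHP were 8.77, 8.51 and 7.97. Its fNSF-HA counts without tBHP were 18.6, 23.6 and 17.7, above the 10.3 to 13.8 with PBS. In PBS cells its change was 0.43. With cNSF-HA its mean count was 11.4 without and 10.3 with tBHP. Over all 18 libraries its mean was 13.1, near the filter of 10.

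Both subunits held rises and falls. Of the 26 small-subunit genes, 4 rose and 7 fell for PBS, 7 and 5 for cNSF-HA and 5 and 6 for fNSF-HA. Of the 51 large-subunit genes, 8 rose and 12 fell for PBS, 17 and 7 for cNSF-HA and 9 and 11 for fNSF-HA. Of all genes tested 24.2% rose and 26.9% fell for PBS, 24% and 26.8% for cNSF-HA and 19.2% and 22.7% for fNSF-HA. The median log2 changes in PBS cells were 0.04 for the small and 0.06 for the large subunit, then 0.14 and 0.18 for cNSF-HA, and -0.20 and -0.05 for fNSF-HA. The cNSF-HA split rested on the third library with tBHP, without which 4 small-subunit genes rose and 7 fell, with a median of 0.03, and 12 large-subunit genes rose and 8 fell, with a median of 0.05 (21.2% and 24.1% of all genes). Without the second fNSF-HA library with tBHP 5 and 9 of the small subunit rose and fell, with a median of -0.05, and 14 and 9 of the large one, with a median of 0.08 (24.4% and 26.2% of all genes). MRPS36, outside the ribosome, had -0.23 (PBS), 0.15 (cNSF-HA) and 0.21 (fNSF-HA), none of which passed the test, and 0.36, 0.54 and 0.49 with the trend on GC content and length removed, all of which did. Among the 46 genes whose protein has a bacterial counterpart 6 rose and 12 fell in PBS cells, and among the 31 specific to mitochondria 6 rose and 7 fell. For cNSF-HA without the third library with tBHP, 8 of the 46 rose and 9 fell, and 8 of the 31 rose and 6 fell. For fNSF-HA without the second library with tBHP, 9 of the 46 rose and 12 fell, and 10 of the 31 rose and 6 fell. The ratio of the summed large-subunit to the summed small-subunit normalized count was 2.06 to 2.11 in the 9 libraries without tBHP and 2.08 to 2.26 in those with it, ranges that overlap through the second fNSF-HA library with tBHP.

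The change went with the base composition of the transcript in PBS and cNSF-HA cells, across these genes as across all genes tested. The median GC content of the 78 transcripts was 48.9% (48.3% over the 12503 tested genes with an annotated sequence), and their median length was 1516 bases (3405). Across the 78 genes the Spearman correlation of the log2 change with GC content was 0.58 for PBS, 0.56 for cNSF-HA and 0.11 for fNSF-HA, beside 0.52, 0.52 and 0.24 over the 12503 genes, all sharing library and depth. In PBS cells 1 of the 23 genes under 45% GC rose and 10 fell, with a median of -0.32, while 9.35% and 51.5% of all genes in that range did so, with a median of -0.33. Between 45% and 55% 9 of 34 rose and 9 fell, with a median of 0.10, beside 31.5% and 19.7% of all genes and 0.08. Over 55% 2 of 21 rose and none fell, with a median of 0.14, beside 37.2% and 6.21% of all genes and 0.25. With each library's trend on GC content and length removed, 14 genes rose and 29 fell for PBS, 18 and 19 for cNSF-HA and 14 and 27 for fNSF-HA, when 28.4% and 29.7%, 28.4% and 28.4%, and 28% and 29% of all genes did so. Several genes described above kept their call but not the size of their change. For PBS, cNSF-HA and fNSF-HA in turn, MRPL19 had -0.25, -0.19 and -0.29, MRPL1 -0.72, -0.44 and -0.59, and MRPS10 -0.34, -0.34 and -0.28. MRPL3 had -0.23, -0.21 and -0.22. Among the rises MRPL2 had 0.21, 0.28 and 0.19, MRPL49 0.28, 0.21 and 0.26, MRPL18 0.28, 0.28 and 0.36, and MRPS21 0.24, 0.17 and 0.15. The changes of MRPS31 were larger, at 0.62, 0.58 and 0.54.

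**Figure D4:**
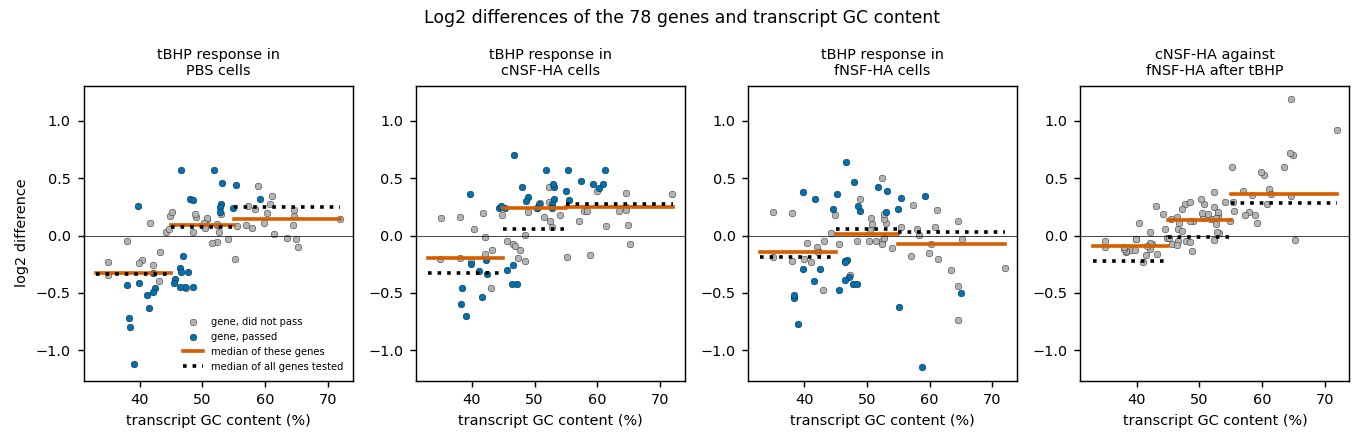
The log2 difference of each of the 78 genes (points) and the median over all genes in bins of GC content (line) are plotted against transcript GC content in percent, for the 3 tBHP responses and for cNSF-HA against fNSF-HA after tBHP. Differences are lower at low GC content in the responses of PBS and cNSF-HA cells, with correlations of 0.58 and 0.56 across the 78 genes, and most steeply ordered in the comparison of the HA forms (0.77).

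Promoter sequences were compared next, as a feature that the choice of genes did not use. RefSeq sequences from 250 bases before to 50 bases after the start (GRCh38.p14) were matched by symbol for 58 of the 78 genes and searched on both strands. The ETS core CCGGAAG was in 25 of the 58 promoters (43.1%), compared with 22% of the 6859 promoters of tested genes and 10.7% of all 22114. The YY1 core AAGATGG was in 20 (34.5%), compared with 8.49% and 6.25%. The NF-Y box CCAAT was in 16 (27.6%; 38% and 36.2%) and the NRF1 core GCATGCG in 7 (12.1%; 7.09% and 4.1%). Of elements linked to stress, GAANNTTC for heat shock factor was in 5 (8.62%; 4.33% of tested genes), TGATGNAA for ATF4 in 1 (1.72%; 1.39%) and TGACNNNGC for NRF2 in 6 (10.3%; 15.6%). Such matches are descriptions of the letters and not of binding. Of the 9 genes that rose in all 3 responses 5 had a promoter sequence, 3 with the ETS core and 1 with the YY1 core, and of the 10 that fell 9 had one, 2 with the ETS core and 4 with the YY1 core. The median GC content of the promoters was 59.7% over the 58, 64% for the 5 and 52.7% for the 9, against 66% for tested genes. The promoters of the genes with the largest mean rise and fall are shown first: MRPL45, at chr17:38296918-38297217 on the plus strand, held the YY1 core once, and MRPL1, at chr4:77862580-77862879 on the plus strand, held none of the first 4 elements. MRPS10, at chr6:42217812-42218111 on the minus strand, and MRPS21, at chr1:150293611-150293910 on the plus strand, are shown beside them because the first fell, the second rose and both hold the ETS core, MRPS10 with the YY1 core and MRPS21 with the NF-Y box. Each is given on the strand of the gene, in lower case with matches to the ETS, YY1, NF-Y and NRF1 letters in capitals.
MRPL45: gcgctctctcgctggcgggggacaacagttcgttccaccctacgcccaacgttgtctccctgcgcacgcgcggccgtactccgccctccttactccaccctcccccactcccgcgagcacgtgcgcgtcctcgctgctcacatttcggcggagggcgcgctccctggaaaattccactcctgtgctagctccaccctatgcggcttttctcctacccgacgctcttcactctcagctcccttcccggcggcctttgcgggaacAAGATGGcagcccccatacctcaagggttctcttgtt
MRPL1: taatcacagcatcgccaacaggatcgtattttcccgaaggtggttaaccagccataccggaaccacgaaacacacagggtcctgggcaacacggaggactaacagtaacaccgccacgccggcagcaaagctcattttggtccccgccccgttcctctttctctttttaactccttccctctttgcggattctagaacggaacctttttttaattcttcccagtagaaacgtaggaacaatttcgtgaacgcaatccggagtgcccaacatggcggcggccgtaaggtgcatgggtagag
MRPS10: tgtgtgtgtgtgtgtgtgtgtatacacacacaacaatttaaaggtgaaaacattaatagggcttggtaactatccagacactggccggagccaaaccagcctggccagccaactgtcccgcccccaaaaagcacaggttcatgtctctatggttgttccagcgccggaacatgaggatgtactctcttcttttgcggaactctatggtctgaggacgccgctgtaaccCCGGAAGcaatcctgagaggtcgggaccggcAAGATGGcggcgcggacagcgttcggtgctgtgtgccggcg
MRPS21: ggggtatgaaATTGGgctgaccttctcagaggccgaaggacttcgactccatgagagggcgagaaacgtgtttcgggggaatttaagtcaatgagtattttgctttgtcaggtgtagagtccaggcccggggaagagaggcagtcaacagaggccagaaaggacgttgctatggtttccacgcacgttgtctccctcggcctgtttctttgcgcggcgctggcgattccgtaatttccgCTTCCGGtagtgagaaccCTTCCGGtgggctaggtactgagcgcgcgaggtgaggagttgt

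Whether the form of HA changed these genes was asked first after tBHP, by setting cNSF-HA against fNSF-HA. No gene of the 78 passed the test (limma, 0% of all genes tested), nor by edgeR, while DESeq2 on the recovered reads called 5: MRPL4, MRPL28, MRPL43, MRPS11 and MRPS34, all higher with cNSF-HA, when 2.21% of all genes were called higher and 4.54% lower. MRPL28 and MRPS11 are named here after their values were seen. At an unadjusted p under 0.05, 22 of the 78 genes passed in limma, 20 of them higher with cNSF-HA, or 28.2% compared with 32.2% of all genes. The log2 difference was above 0 for 51 genes and its median was 0.13 (-0.03 over all genes), the smallest adjusted p being 0.0981. The median was 0.03 without the third cNSF-HA library with tBHP, 0.07 without the second fNSF-HA library with tBHP and 0.08 with the trend on GC content and length removed. The Spearman correlation of this difference with transcript GC content was 0.77 across the 78 genes and 0.79 across the 12503. Without the third fNSF-HA library with tBHP 24 genes were called higher and 3 lower, when 19.7% and 21.1% of all genes were.

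The 3 genes with the smallest p there were MRPL43, MRPL4 and MRPS34. MRPL43, a large-subunit protein specific to mitochondria, gave 1065, 1015 and 1225 for cNSF-HA and 879.5, 734 and 910.0 for fNSF-HA after tBHP, and 1062, 973 and 1022 in PBS cells. The groups with HA did not overlap, the log2 difference was 0.39 (SE 0.0855, adjusted p 0.0981), and it was 0.18 with the trend on GC content and length removed. MRPL4, a large-subunit protein at the peptide tunnel, gave 1176, 1167 and 1559 with cNSF-HA and 861, 504 and 1145 with fNSF-HA, and the second of these fNSF-HA libraries was the lowest of the 6. Its log2 difference of 0.70 (adjusted p 0.0981) was 0.38 without that library, 0.97 without the third and 0.19 with the trend on GC content and length removed. MRPS34, of the small subunit, gave 1182, 1293 and 1689 and 866, 513 and 1301. Its log2 difference of 0.72 (adjusted p 0.0981) was 0.37 without the second fNSF-HA library, 1.04 without the third and 0.20 with the trend on GC content and length removed.

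**Figure D5:**
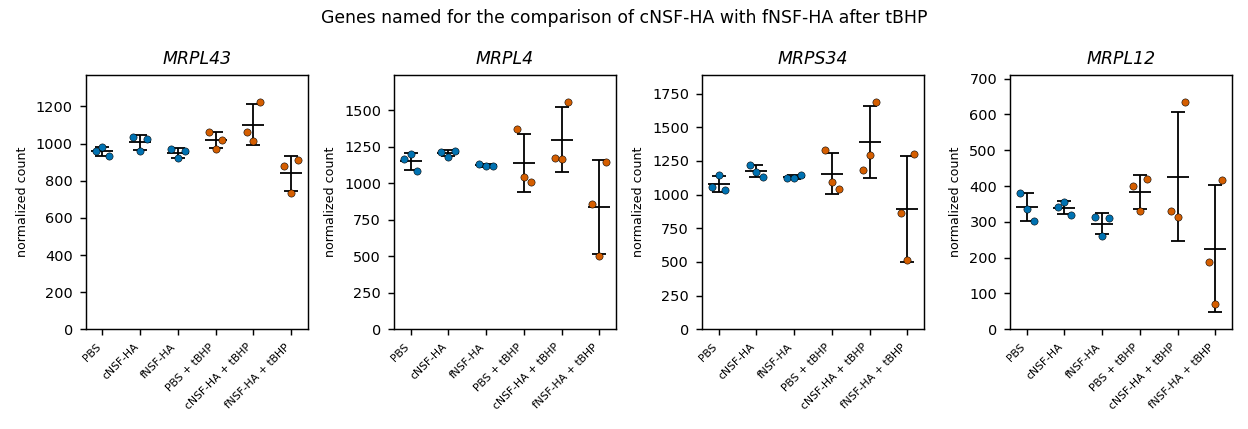
Normalized counts of MRPL43, MRPL4, MRPS34 and further named genes are plotted by group, 1 point per library and a bar for the mean of 3 with the SD as error bar; the y axes start at 0. After tBHP the fNSF-HA libraries of MRPL4 and MRPS34 are spread widely, with the second lowest in both.

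Against PBS after tBHP, neither HA form gave a call among the 78 genes in limma or edgeR. With cNSF-HA 10 genes (12.8%, compared with 8.64% of all genes) passed at an unadjusted p under 0.05, all higher than with PBS. Of the 78 differences 73 were above 0, and the median was 0.14, beside -0.004 over all genes. The smallest adjusted p was 0.490 (0% of all genes called, and DESeq2 called 0 of the 78). The median was 0.05 without the third cNSF-HA library with tBHP. With fNSF-HA 20 (25.6%, compared with 22.7% of all genes) passed at an unadjusted p under 0.05, 14 higher and 6 lower, with a median of 0.005 (0.05 without the second fNSF-HA library with tBHP) and a smallest adjusted p of 0.0687, when 0.117% of all genes were called higher and 0.0219% lower. DESeq2 called 5 of the 78 there, MRPL1, MRPL3, MRPL39, MRPS10 and MRPS36, all higher with fNSF-HA (2.42% of all genes higher and 0.811% lower). MRPL39 and MRPS36 are named after their values were seen. MRPL1 was higher with fNSF-HA than with PBS in each library, with the log2 difference 0.46 (SE 0.107, adjusted p 0.0687 in limma), on the counts given above. Without the third fNSF-HA library with tBHP 12 were called higher and 11 lower in limma (13.9% and 15.5% of all genes), and without the second PBS library with tBHP MRPL1 and MRPL32, the latter named after its values were seen, were called higher with fNSF-HA (1.09% of all genes higher and 0.161% lower).

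Without tBHP the pre-incubations gave no call among the 78 genes either, in limma, edgeR or DESeq2. Each of these fits shared 1 spread per gene with the libraries after tBHP. The median within-group SD of the 78 genes was 0.167 after tBHP and 0.0587 without it. The lack of calls here thus does not show that HA had no effect. At an unadjusted p under 0.05, 1 gene passed between cNSF-HA and fNSF-HA (1.28%, beside 1.51% of all genes), 0 between cNSF-HA and PBS (0.921% of all genes) and 1 between fNSF-HA and PBS (1.28%, beside 0.796%); in both cases it was MRPS24, with log2 differences of -0.80 and 0.70 on counts of 11.5, 15.6 and 7.24 with cNSF-HA, 18.6, 23.6 and 17.7 with fNSF-HA and 11.6, 10.3 and 13.8 with PBS. In a fit of only the 2 HA groups 4 genes passed: MRPL41 was higher with cNSF-HA, and MRPL1, MRPL42 and MRPS35 were lower (1.78% of all genes higher and 5.38% lower). MRPL41 and MRPS35 are likewise named after their values were seen. The differences between tBHP responses were tested too. Between cNSF-HA and PBS, fNSF-HA and PBS, and cNSF-HA and fNSF-HA, 0 genes passed in limma, edgeR and DESeq2, 5, 7 and 7 had an unadjusted p under 0.05 (6.41%, 8.97% and 8.97%, beside 4.06%, 6.88% and 3.89% of all genes), the medians were 0.13, 0.009 and 0.12, and the smallest adjusted p were 0.999, 0.667 and 0.710. Over all genes tested the medians were 0.002, -0.003 and -0.008. Without the third cNSF-HA library with tBHP the medians of the 78 genes for the first and last difference were 0.05 and 0.04. Without the second fNSF-HA library with tBHP those for the other and the last were 0.06 and 0.08.

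Other genes of mitochondrial gene expression also held rises and falls, beside the 24.2% of all genes that rose and 26.9% that fell in PBS cells. Of the 6 mitoribosomal proteins with other symbols, 1 rose and 2 fell in PBS cells: DAP3, the GTP-binding protein of the small subunit, changed by 0.53 (PBS), 0.55 (cNSF-HA) and 0.62 (fNSF-HA), from 2169 ± 38.2 to 3135 ± 176 normalized counts in PBS cells (mean ± SD, n = 3). CHCHD1 and PTCD3, also of the small subunit, fell there by 0.52 and 0.44 on the log2 scale, and the median of the 6 was 0.15. Of 14 translation factors (median -0.18) 2 rose and 5 fell, among them GUF1 (-0.64), LRPPRC (-0.62), which stabilises mitochondrial mRNAs, and the elongation factor GFM1 (-0.39). Of 25 assembly and rRNA factors (median -0.07) 3 rose and 8 fell, with MTERF3, a mitochondrial transcription and ribosome assembly factor, at -1.20 and FASTKD2, an rRNA-binding protein, at -0.96. Of 10 regulators of mitochondrial genes (median -0.23) 1 rose and 5 fell, with TFAM, which packages and transcribes mitochondrial DNA, at -1.03, GABPA, the DNA-binding part of the ETS factor GABP, at -0.40, and NRF1 at -0.33. In cNSF-HA cells the counts of rises and falls in these lists were 2 and 2, 3 and 4, 3 and 5, and 1 and 4, and in fNSF-HA cells 1 and 2, 3 and 5, 3 and 5, and 0 and 3, beside 24% and 26.8% and 19.2% and 22.7% of all genes. Without the third cNSF-HA library with tBHP they were 1 and 2, 1 and 4, 2 and 5, and 0 and 5, and without the second fNSF-HA library with tBHP 1 and 2, 3 and 5, 5 and 4, and 1 and 5.

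The RNAs of the mitochondrial genome itself were in the table too. Both rRNA genes rose in all 3 responses: MT-RNR1 changed by 1.60 (PBS), 1.54 (cNSF-HA) and 1.43 (fNSF-HA) on the log2 scale and MT-RNR2 by 1.60 (PBS), 1.73 (cNSF-HA) and 1.77 (fNSF-HA). For the 13 mRNAs, which the mitochondrial ribosome translates, 4 rose and 5 fell for PBS, 3 and 5 for cNSF-HA and 5 and 5 for fNSF-HA, beside the same shares of all genes, and 4 and 4 for each HA form without these libraries. MT-ND1 rose (0.72 in PBS cells) and MT-ND6 and MT-ATP8 fell (-1.60 and -1.37). The libraries were made from polyadenylated RNA, and the tails of the rRNAs were not measured, so these values follow the rRNA captured in such libraries. Their part in the values of the MRP genes was not tested.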

How the data were processed

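Polyadenylated RNA of 18 IMR90 libraries (6 groups of 3) was prepared with a TruSeq RNA V2 kit and sequenced as single reads of 100 nt. The submitters' processing notes name Trimmomatic 0.32, STAR 2.5.2b, featureCounts of Subread 1.5.0-p3, DESeq2 and GRCh38.p7. The annotation and the strand setting of the counting are not given in the sources used here. The authors deposited a signal per gene and library, the reads on the gene over a library size factor, here called a normalized count, and 100% of the values gave whole reads, within 0.01 reads, when that factor was recovered. The p-value, q-value and ranking score columns deposited by the authors hold their own test and were not used.

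Each difference was tested with limma 3.58.1 (R 4.3.3; two-sided) on log2(normalized count + 1), with 1 coefficient per group, over the 13686 genes with a mean of at least 10, Benjamini-Hochberg adjustment over all of them and a threshold of 0.05. On this scale fold changes of low genes are understated. Alternatives were edgeR 4.0.16 and DESeq2 1.42.0 on recovered reads, other scalings, pseudocounts and filters, removal of each library's trend on transcript GC content and length (natural splines, GENCODE 29), the replicate number as a block and leaving out each library. The method was tested on simulated data with an equal spread in all groups, which the real libraries did not have. Genes, lists and tests were chosen with earlier results of these data known. Named genes were the 8 largest mean rises and falls over the 3 tBHP responses among genes that passed in at least 1, the 3 smallest p between the HA forms after tBHP, the 3 highest and lowest levels per kb, the 3 smallest mean absolute changes among genes with a mean of at least 100 and a few genes of known role, and others are marked as named after their values were seen. No pair of replicates was identical, and the chi-square per degree of freedom of their reads was 1.45 to 2.55 without and 2.72 to 64.8 after tBHP. Depth was 20261103 to 26287660 reads. Coordinates are those of GENCODE 29, and promoter sequences and their coordinates are from RefSeq.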

Additional observations from a re-analysis of the deposited data

How the results depend on the processing

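The number of mitochondrial ribosomal protein genes that passed the test moved by more than 1.5 times in these cases, and the cause was not tested. With edgeR and TMM scaling 19 rose in PBS cells and 22 in fNSF-HA cells, in place of 12 and 14, and with no filter on low genes 9 rose in fNSF-HA cells (7.54% of all genes). With the trend on GC content and length removed 29 fell in PBS cells in place of 19, 19 in cNSF-HA cells in place of 12 (21 with the replicate block as well) and 27 in fNSF-HA cells in place of 17 (27 with the block). In all 3 responses 17 rose with edgeR and TMM scaling and 14 with quantile normalization, in place of 9, and 17 fell with the trend removed (19 with the block), in place of 10. Where limma called 0, DESeq2 called 5 between cNSF-HA and fNSF-HA and 5 between fNSF-HA and PBS after tBHP, and a fit of only the groups compared called 4 between the HA forms without tBHP. Leaving out each library in turn gave 9 to 13 rises and 17 to 20 falls for PBS, 16 to 28 and 9 to 15 for cNSF-HA and 8 to 19 and 14 to 23 for fNSF-HA. It gave 0 to 27 calls between the HA forms and 0 to 23 between fNSF-HA and PBS after tBHP, the highest in both cases without the third fNSF-HA library with tBHP, and 0 to 0 in the other comparisons of pre-incubations and of responses.

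Removing the trend on GC content and length, with or without the replicate block, turned the log2 change of MRPL42 in cNSF-HA cells to 0.14, of MRPL43 to -0.15 in PBS and -0.16 in cNSF-HA cells, of MRPL4 to -0.36 in cNSF-HA cells, of MRPS34 to -0.28 in PBS and -0.26 in cNSF-HA cells, of MRPL9 to -0.15 and -0.18 in the same cells and of MRPS18C to 0.028 in PBS cells. Over all results and alternatives other than left-out libraries, 955 values kept their direction and side of the threshold, 31 came to pass it, 29 ceased to pass it, 20 moved and 18 reversed; with a library left out these were 442, 11, 29, 4 and 0. Same-numbered libraries of the groups compared deviated together with correlations of -0.119 to 0.333, in no comparison above 0.1 for all 3 numbers. Without tBHP each cNSF-HA library correlated most with the fNSF-HA library of its number (0.115, 0.0341 and 0.0634). In no other comparison did this hold for all 3 numbers. Whether the numbers pair the samples cannot be told from these values. With the replicate block 13 rose and 19 fell for PBS, 26 and 12 for cNSF-HA and 16 and 17 for fNSF-HA, when 25.1% and 27.7%, 24.7% and 27.7%, and 19.8% and 23.7% of all genes did so, and 0 passed in each other comparison. The 3 libraries per group and the wider spread after tBHP limit what could be detected between pre-incubations.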
